A study of Rattus norvegicus with 180 samples.

Results

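The duodenum and the jejunum, the first and the second segment of the small intestine, were compared by miRNA microarray in the 3 saline-perfused rats. Of the 180 arrays of the series, 6 were used for the comparison, which were all arrays that the labels assign to these organs (1 array per organ in each of rat 4, rat 5 and rat 6). All animals were male Sprague-Dawley rats of 10 weeks of age without any other treatment, and saline perfusion before collection was shared by both organs. According to the study's methods, the sample taken from each intestinal organ was mucosal epithelial tissue obtained by scraping, and not the whole wall. The question was which miRNAs differ between neighbouring segments of the same tube, measured within the same animals. Of the 717 miRNAs on the array, 178 gave a detected signal in 1 or more of the 6 arrays and 126 in all 6. A miRNA was tested when it was detected on all 3 arrays of the duodenum or of the jejunum, which left 149 miRNAs. miR-212, picked out after its values were seen, was not among them, since it was detected on 1 array only, with signals of 61.1, 45.6 and 74.9 in the duodenum and 19.0, 12.0 and 18.6 in the jejunum.

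miRNAs are short RNAs that are cut from hairpin precursors and guide a silencing complex to messenger RNAs, mainly through bases 2 to 8 of the mature strand, called the seed. Members of a family share the seed. The small intestine is lined by a single layer of epithelial cells on villi and crypts. The duodenum receives acid chyme, bile and pancreatic juice and takes up iron and calcium, while the jejunum carries most of the absorption of sugars, amino acids and fat. The miR-192, miR-194 and miR-215 group is known as the signature of the intestinal epithelium, miR-141 and the miR-200 family mark epithelia in general, and miR-143 and miR-145 mark smooth muscle and connective tissue cells.

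Mature sequences are shown for the called miRNAs on which the comparison turns, with their relatives on the array. They are from RefSeq (GRCr8), written 5′ to 3′ with the seed in capitals, and all 21 of the 21 called miRNAs were listed there.
miR-204-5p: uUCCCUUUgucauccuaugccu
miR-211-5p: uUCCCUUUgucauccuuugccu
miR-210-3p: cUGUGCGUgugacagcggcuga
miR-29c-3p: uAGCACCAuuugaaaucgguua
miR-29a-3p: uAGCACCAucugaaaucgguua
miR-19a-3p: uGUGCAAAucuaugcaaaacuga
miR-19b-3p: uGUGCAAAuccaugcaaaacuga
miR-221-3p: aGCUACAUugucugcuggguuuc
miR-222-3p: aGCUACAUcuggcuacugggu
miR-133b-3p: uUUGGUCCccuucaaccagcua
miR-133a-3p: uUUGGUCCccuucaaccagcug
miR-10b-5p: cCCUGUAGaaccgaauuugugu
miR-10a-5p: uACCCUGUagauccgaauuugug
The pairs miR-204 and miR-211, miR-29c and miR-29a, miR-19a and miR-19b, and miR-133b and miR-133a each differed by 1 base over 22, 22, 23 and 22 bases. The listed miR-10a strand starts 2 bases before that of miR-10b, and the strands differed by 1 base over the 21 bases compared, so that the 2 seeds as listed are not the same. On GRCr8, miR-221 lies at chrX:6023246-6023268 and miR-29c at chr13:109099412-109099433, both on the plus strand within spans of long noncoding genes. miR-204 lies at chr1:229743493-229743514 (plus strand, span of Trpm3) and miR-10b at chr3:80035886-80035907 (plus strand, span of Hoxd4). How far a probe for 1 of these miRNAs also binds its relative was not tested.

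The signature of the intestinal epithelium was present on all 6 arrays and did not separate the organs. miR-192 had scaled signals of 34114, 24388 and 18690 in the duodenum of rats 4, 5 and 6, and of 25822, 25959 and 18834 in the jejunum. The signals overlapped, and the difference (duodenum minus jejunum) was 0.10 on the log2 scale (95% confidence interval −0.67 to 0.87). miR-141 had signals of 5350, 4008 and 3601 in the duodenum and 3647, 3312 and 2244 in the jejunum. It was higher in the duodenum in all 3 rats, but the groups overlapped and the difference of 0.50 (SE 0.33) did not pass the test (limma, adjusted p = 0.410). A fit to the 6 arrays alone, with the rat as a block, did not call it either (limma, adjusted p = 0.0516). Among the 55 organs of the perfused rats, the duodenum had the highest mean and the jejunum the second highest for each of miR-192, miR-194, miR-215 and miR-141. None of the 5 tested members of the miR-192 and miR-194 list and none of the 7 tested members of the miR-200 list was called in either direction. Their medians were 0.32 and −0.03, beside a median of 0.00 over all 149 miRNAs, and the size of a difference was 0.29 at the median. Under 3 of the 6 other scalings and background settings the median of the miR-200 list was above 0 or at 0, and that of the miR-192 and miR-194 list was 0.00 after quantile normalization and −0.09 without scaling, so no direction is given for either.

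Of the 149 miRNAs tested, 15 (10.1%) were called higher in the duodenum and 6 (4.03%) higher in the jejunum, 21 (14.1%) in all (limma over 18 arrays of the 6 intestinal organs with the rat as a block, adjusted p under 0.05). All 21 differed in the same direction in all 3 rats, as did 52 (34.9%) and 32 (21.5%) of all miRNAs tested for the duodenum and the jejunum. In all, 29 (19.5%) had the 3 duodenum arrays above the 3 jejunum arrays and 15 (10.1%) the reverse. Of the called miRNAs, 12 of 15 and 5 of 6 had groups without overlap. The split of the calls between the organs depended on how the arrays were brought to 1 scale. It was 5 to 10 with the 75th percentile taken over all miRNAs, 7 to 7 after quantile normalization and 24 to 7 in the authors' table, and 1 to 13 without scaling. The direction of all 21 called miRNAs was kept under these 4 settings and with a percentile taken over intestinal arrays, whereas with normexp background correction all 6 values for the jejunum changed sign (0.29 to 0.85). With normexp no miRNA was called in either direction. The calls kept for the duodenum were miR-210, miR-290, miR-652*, miR-219-5p and miR-1949 with the percentile over all miRNAs, and miR-210, miR-290, miR-652*, miR-219-5p, miR-29c and miR-378 after quantile normalization. Only miR-290 of the 15 was kept with all 717 miRNAs tested (the others had adjusted p of 0.0591 to 0.0773), and miR-33, miR-30e, miR-22, miR-324-3p, miR-2985 and miR-702-3p were lost with the small intestine alone fitted (0.0505 to 0.0689). The 75th percentile before scaling was lower in the duodenum in every rat, with log2 differences of −0.56, −0.20 and −0.46 in rats 4, 5 and 6. Fewer miRNAs were detected in the duodenum of each rat (144, 134 and 154) than in its jejunum (159, 151 and 160), and the lowest detected signal was 24.8 to 31.9 in the duodenum and 14.9 to 23.5 in the jejunum. Of the miRNAs tested, 21 passed the detection filter only through the jejunum and 2 only through the duodenum, and their test is not independent of the organ that admitted them. This holds for 5 of the 6 calls for the jejunum (all but miR-345-5p) and for miR-204 among those for the duodenum. The part of signal level and detection in the calls was not tested.

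**Figure D1:**
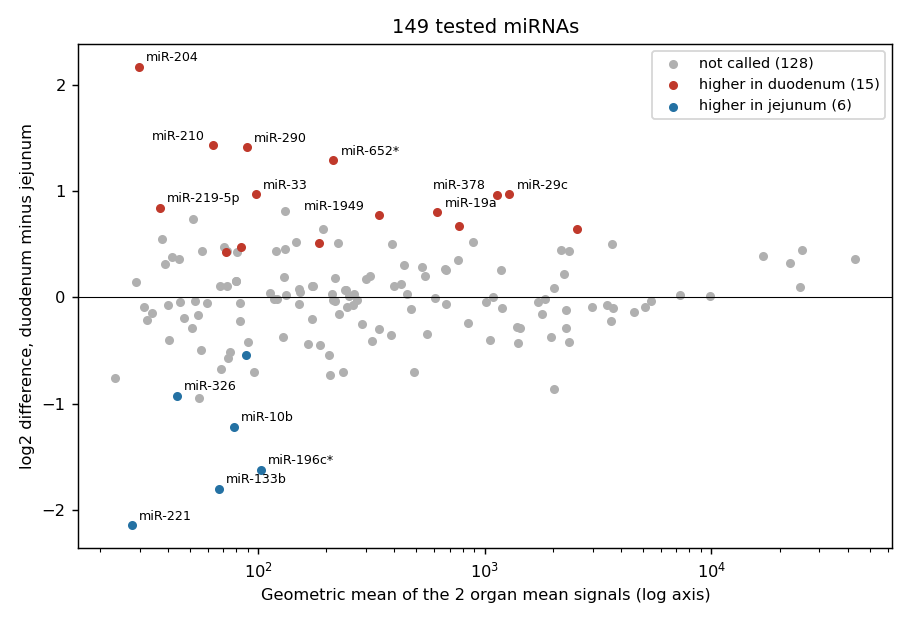
The log2 difference between the organs (duodenum minus jejunum, vertical axis) is plotted against the geometric mean of the 2 organ mean signals (horizontal log axis) for the 149 tested miRNAs, with the 15 called higher in duodenum in red and the 6 called higher in jejunum in blue. Grey points are the 128 miRNAs that were not called, and the called miRNAs past 0.75 in size are named. The values of miR-204, miR-221 and miR-326 are against an organ where they were not well above background.

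**Figure D2:**
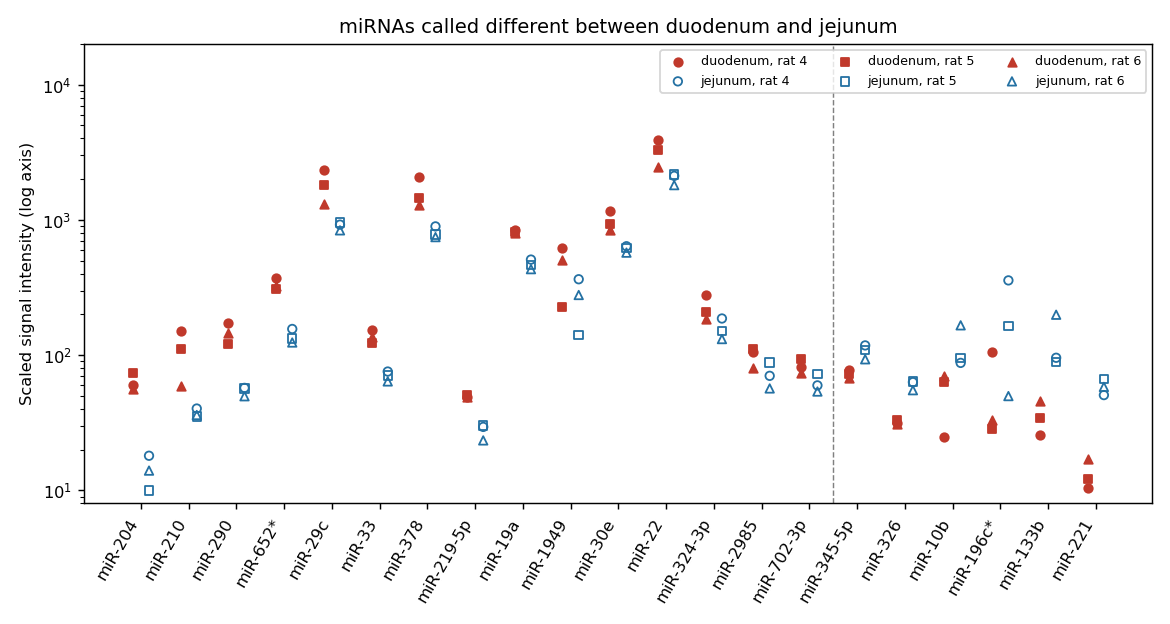
Scaled signals (vertical log axis) of the 21 called miRNAs in each rat are shown, with filled red symbols for duodenum and open blue symbols for jejunum. The 3 jejunum symbols of miR-204, the 3 duodenum symbols of miR-221 and of miR-326, 2 duodenum symbols of miR-133b and 1 each of miR-10b and miR-196c* were not well above background.

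Of the miRNAs called higher in the duodenum, miR-33, which lies in the span of Srebf2 and is known to repress cholesterol export, had signals of 153, 123 and 136 in the duodenum and of 75.6, 70.6 and 63.9 in the jejunum. The lowest duodenum array was above the highest jejunum array, with a difference of 0.97 (SE 0.25, adjusted p = 0.0340). miR-378, in the span of Ppargc1b and known from mitochondrial metabolism, had 2091, 1445 and 1283 in the duodenum and 895, 780 and 746 in the jejunum. It was higher in each rat, by 1.22, 0.89 and 0.78 (mean 0.97, SE 0.24, adjusted p = 0.0300). Its other arm, miR-378*, had 224, 171 and 134 against 106, 108 and 81.9, a difference of 0.82 that did not pass the test (adjusted p = 0.0843, but 0.0367 in the fit to the 6 arrays alone with the rat as a block, called the 6-array fit here). That fit called 37 of the 149 miRNAs (24.8%), 26 (17.4%) higher in the duodenum and 11 (7.38%) higher in the jejunum. The groups of both arms did not overlap.

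miR-29c, whose family is known to repress collagens and other matrix genes, had signals of 2354, 1821 and 1303 in the duodenum against 923, 958 and 837 in the jejunum. Every duodenum array was above every jejunum array (difference 0.97, SE 0.22, adjusted p = 0.0207), with the widest gap in rat 4 (1.35) and the smallest in rat 6 (0.64). Of the 3 family members on the array, miR-29c was called. miR-29b had 2740, 2864 and 2653 against 1989, 2118 and 1995, without overlap (0.44, adjusted p = 0.0876), and was called in the 6-array fit (adjusted p = 0.0428). miR-29a, which differs from miR-29c by 1 base, had 2118, 2314 and 1825 against 1883, 2041 and 1947, with a difference of 0.09 (95% interval −0.25 to 0.43). The hairpins of miR-29c and of 1 copy of miR-29b lie 447 bases apart on chromosome 13, and that of miR-29a lies on chromosome 4 beside the other miR-29b copy. The difference between the family members was not tested.

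miR-30e lies in the span of Nfyc and had 1167, 927 and 836 in the duodenum and 639, 619 and 573 in the jejunum. The arrays did not overlap and the difference was 0.67 (SE 0.20, adjusted p = 0.0439). It was the only one of the 5 tested miR-30 members that was called. The other 4 had differences of 0.10 to 0.36, but 3 of the 5 lay above 0 with the percentile taken over all miRNAs and 1 of the 5 without scaling, so no direction is given for the family. miR-30c, of which 1 hairpin lies 2906 bases from that of miR-30e, had 916, 691 and 614 against 611, 613 and 591 (0.27, adjusted p = 0.548), with most of the gap in rat 4.

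Of the miR-17-92 and related clusters, which are known to favour proliferation, 1 of 10 tested members was called, miR-19a. Its signals were 836, 812 and 796 in the duodenum and 509, 463 and 432 in the jejunum. The groups did not overlap (difference 0.80, SE 0.24, adjusted p = 0.0439). miR-18a comes from a hairpin 51 bases away in the same cluster. Of miR-19b, 1 hairpin lies 220 bases away there and another, with the same mature sequence, on chromosome X. The differences of miR-18a and miR-19b were 0.65 (adjusted p = 0.232) and 0.44 (adjusted p = 0.197). Both were called in the 6-array fit (adjusted p = 0.0401 and 0.0428), which also called miR-363 higher in the jejunum (adjusted p = 0.0459). That probe set (miRBase 15.0) was not well above background in the duodenum and was tested only through the jejunum, and the fit called 24.8% of all miRNAs. miR-17-5p, miR-20a and miR-92a, from the same cluster, had 0.20, 0.25 and 0.00. The list as a whole had a median of 0.10, with 6 members above 0 and 4 below, and the calls and the median of this list moved with the scaling (5 above and 5 below 0 after quantile normalization).

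miR-204, from the span of Trpm3, is known mainly from the eye and other epithelia. Its signals of 60.1, 73.4 and 56.2 in the duodenum stood against 18.0, 10.0 and 14.0 in the jejunum, where it was not well above background on any array. It was at least 3.16-fold higher in the duodenum (adjusted p = 0.0439). It passed the detection filter only through the duodenum, and the adjusted p was 0.0773 with all 717 miRNAs tested and 0.279 with a floor 4 times as high. miR-211, which differs from it by 1 base, was detected on none of the 6 arrays, with signals of 2.0 to 5.0. miR-210, a known target of the hypoxia-inducible factor, had 152, 111 and 59.6 against 40.3, 35.1 and 36.1. The jejunum arrays were close to each other and the duodenum arrays were spread, and no jejunum array reached the lowest duodenum array (difference 1.43, SE 0.29, adjusted p = 0.0103).

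**Figure D3:**
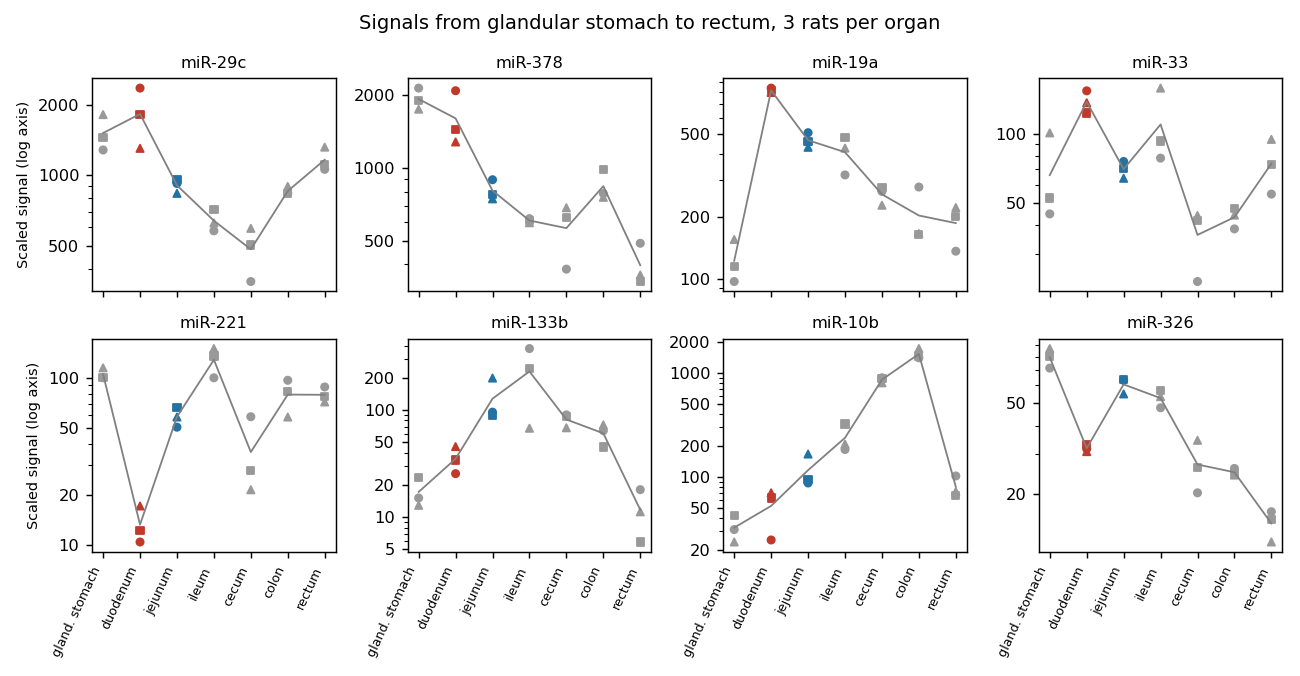
Scaled signals (log axis) of 8 called miRNAs are shown in 7 organs from the glandular stomach to the rectum, with 1 symbol per rat and the organ means joined by a line. Duodenum is red and jejunum blue, and miR-29c, miR-378 and miR-19a fall from duodenum to ileum while miR-10b rises from 52.8 in the duodenum to 1520 in the colon.

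miR-219-5p, known from oligodendrocytes, had 48.9, 50.4 and 48.7 in the duodenum against 29.5, 30.2 and 23.4 in the jejunum (0.84, SE 0.21, adjusted p = 0.0300). Its duodenum arrays had an SD of 0.896 around a mean of 49.3. miR-22 had 3917, 3269 and 2442 against 2118, 2166 and 1808 (0.64, SE 0.19, adjusted p = 0.0439), again without overlap. miR-1949 was higher in each rat by 0.77, 0.68 and 0.86 (SE 0.23, adjusted p = 0.0439), although the organs overlapped. Its signals were 623, 226 and 507 in the duodenum and 364, 141 and 278 in the jejunum, so that rat 5 was low in both organs, and the call was lost without the rat as a block (adjusted p = 0.635).

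The remaining 5 miRNAs called higher in the duodenum had their highest mean among the 55 organs in the pancreas. miR-652* had signals of 371, 309 and 326 against 156, 132 and 124 (difference 1.29, SE 0.28, adjusted p = 0.0141), and a pancreas mean of 16214 ± 5901 (SD, n = 3). Its other arm, miR-652, had 223, 217 and 203 against 209, 201 and 221, a difference of 0.03. miR-290, named for a cluster known from embryonic stem cells, had 172, 120 and 146 against 57.2, 56.5 and 49.6 (1.41, SE 0.24, adjusted p = 0.00399). The second probe set for miR-290 on the array and those for the cluster members miR-291a, miR-291b, miR-292, miR-293, miR-294 and miR-295 were detected on 0 of the 6 arrays. miR-324-3p, miR-2985 and miR-702-3p differed by 0.51, 0.47 and 0.43 after scaling and by 0.10, 0.07 and 0.02 before it. miR-345-5p, which was called in the other direction, also had its highest mean in the pancreas. The 3 acinar cell markers of the pancreas, miR-216a, miR-216b and miR-217, were detected on none of the 6 arrays. The 75th percentile before scaling was lower in the pancreas (68.0 to 121, against 540 to 697 in the duodenum and 667 to 958 in the jejunum). The part of scaling in these 6 calls was not tested further.

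**Figure D4:**
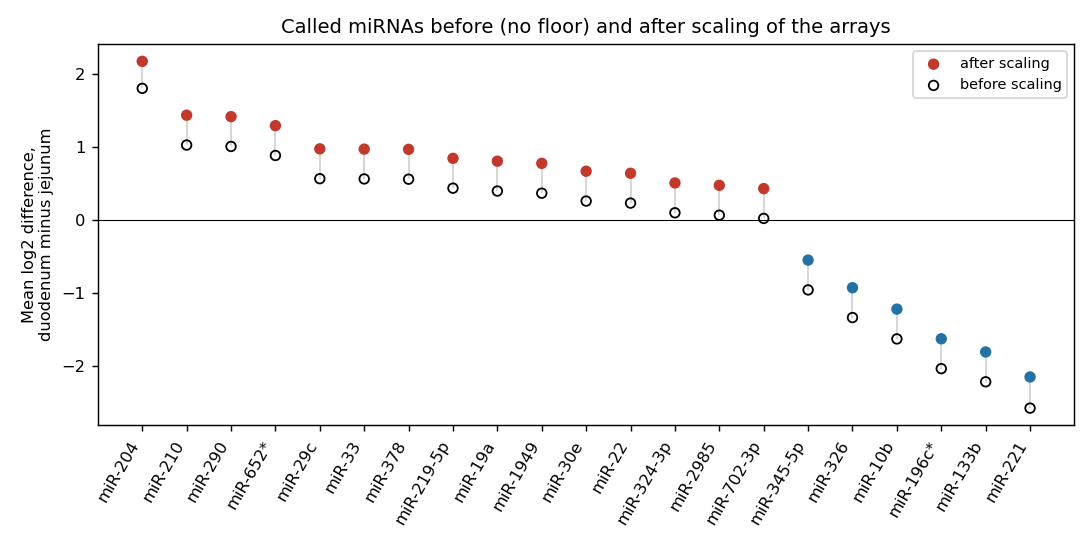
Mean log2 differences (duodenum minus jejunum) of the 21 called miRNAs are shown after scaling (filled symbols) and before scaling, without a floor (open symbols). The scaling raised the values by 0.41, the mean difference of the percentiles, apart from those near the floor, and miR-324-3p, miR-2985 and miR-702-3p were near 0 before it.

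Of the miRNAs called higher in the jejunum, miR-221 is known to repress the cell cycle inhibitor Cdkn1b and the receptor Kit. Signals of 50.6, 66.3 and 58.2 in the jejunum stood against 10.4, 12.2 and 17.1 in the duodenum, where it was not well above background on any array. It was at least 2.02-fold higher in the jejunum (adjusted p = 0.00282). It passed the detection filter only through the jejunum, and the adjusted p was 0.0198 with all 717 miRNAs tested and 0.209 with a floor 4 times as high. The other intestinal organs and the glandular stomach lay above the duodenum, with means of 128 in the ileum, 36.0 in the cecum, 79.3 in the colon, 79.0 in the rectum and 105 in the glandular stomach. miR-222, which has the same seed and whose hairpin lies 458 bases from that of miR-221 on chromosome X, was detected on none of the 6 arrays (signals of −4.2 to 3.4).

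miR-326, from the span of Arrb1, had 63.1, 63.6 and 55.0 in the jejunum and 31.7, 33.1 and 30.8 in the duodenum. The arrays did not overlap, and the duodenum arrays were not well above background, so the miRNA was at least 1.90-fold higher in the jejunum (adjusted p = 0.0103). It too passed the filter only through the jejunum, and the adjusted p was 0.0349 with all 717 miRNAs tested. miR-345-5p had 118, 109 and 93.2 in the jejunum against 77.9, 72.1 and 68.3 (difference −0.55, SE 0.16, adjusted p = 0.0439). It was the only one of the 6 called higher in jejunum that was detected on all 6 arrays. Its call was lost with the percentile over intestinal arrays, in the authors' table and with all 717 miRNAs tested. The call was also lost over the 6 arrays without the rat as a block, with the slide in place of the rat, and with any rat left out. With normexp its value changed sign (0.72).

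The HOX clusters pattern the body from head to tail, and 2 of their miRNAs on the list were tested, of which miR-10b was called. It lies in the span of Hoxd4 and had 24.8, 63.0 and 70.5 in the duodenum against 87.6, 95.3 and 166 in the jejunum. The highest duodenum array was below the lowest jejunum array (difference −1.22, SE 0.34, adjusted p = 0.0439). It was detected on 2 of 3 duodenum arrays, and the call was lost with all 717 miRNAs tested (adjusted p = 0.0773) and with the small intestine alone fitted (adjusted p = 0.0523). The miRNA continued upward to 238 in the ileum, 861 in the cecum and 1520 in the colon, and was 80.6 in the rectum. miR-10a-5p had 163, 476 and 561 against 450, 471 and 878, a difference of −0.70 with overlap (adjusted p = 0.334), and means of 2106 in the ileum and 3137 in the colon. miR-196c* had 106, 28.6 and 33.0 in the duodenum and 357, 164.9 and 49.8 in the jejunum. It was higher in the jejunum of each rat, but the jejunum array of rat 6 was below the duodenum array of rat 4 (difference −1.62, SE 0.47, adjusted p = 0.0439). It was detected on 2 of 3 duodenum arrays, and the call was lost with all 717 miRNAs tested (adjusted p = 0.0773), in the 6-array fit (0.0642), without the rat as a block (0.143) and with the small intestine alone fitted (0.0702). Its other arm, miR-196c, and both miR-196a and miR-196b were detected on 0 of the 6 arrays. With the normexp background setting the median of miR-10a-5p and miR-10b was above 0 (0.42), and under the other 5 settings it was below 0.

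miR-133b, known from muscle, had 25.5, 34.1 and 45.6 in the duodenum and 95.6, 88.6 and 199 in the jejunum. No duodenum array reached the lowest jejunum array (difference −1.80, SE 0.51, adjusted p = 0.0439). miR-133b was detected on 1 of 3 duodenum arrays and passed the detection filter only through the jejunum. The other duodenum values were not well above background, so the size of the difference is not well fixed. The call was lost with all 717 miRNAs tested or a floor 4 times as high (adjusted p = 0.0773 for both), and when the small intestine alone (adjusted p = 0.119) or all 55 organs (adjusted p = 0.211) were fitted. miR-133a and miR-206, the latter from a hairpin 3801 bases away, were detected on none of the 6 arrays. miR-143, from smooth muscle and connective tissue, had 618, 1584 and 2309 in the duodenum and 1780, 1632 and 4727 in the jejunum, with overlap (−0.87, adjusted p = 0.454). miR-145 was detected on 1 duodenum array and 2 jejunum arrays. Over the 9 members of the muscle list the summed signal was 658 to 2423 in the duodenum (median 1654) and 1758 to 5107 in the jejunum (median 1934). Most of that sum was miR-143 on each of the 6 arrays, so it adds little to the values of miR-143. miR-1 was detected on 1 jejunum array. In scraped bulk tissue, fewer cells of a type and less RNA per cell cannot be told apart.

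The within-rat differences of some miRNAs from muscle, vessels, connective tissue, the HOX list and the miR-15 and miR-16 family varied widely. Within rat 4 they were −1.53 for miR-143, −1.23 for the endothelial miR-126, −1.17 for the mesenchymal miR-199a-3p, −1.47 for miR-10a-5p, −1.52 for miR-195 and −1.64 for miR-497, the last 2 of which were set beside them after their values were seen. Within rat 5 the same miRNAs differed by −0.04, 0.27, 0.41, 0.01, −0.01 and −0.01, and within rat 6 by −1.03, −0.27, −0.31, −0.65, −0.59 and −0.55. None of the 6 was called. The part of smooth muscle or connective tissue in the calls for the jejunum was not tested.

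**Figure D5:**
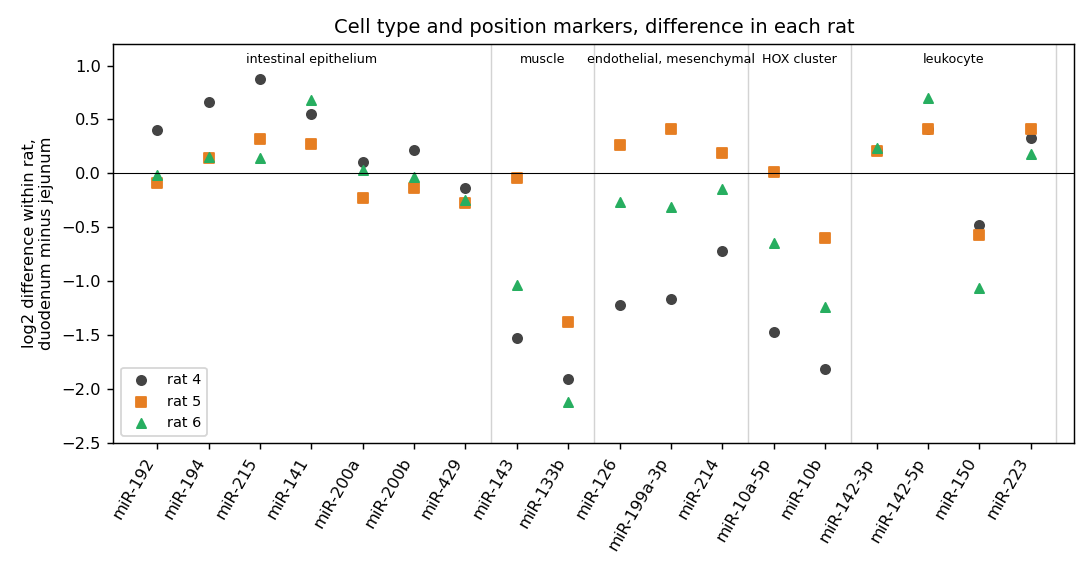
The log2 difference between duodenum and jejunum within each rat is shown for tested markers of the epithelium, muscle, endothelium and mesenchyme, HOX clusters and leukocytes, with 1 symbol per rat. The markers of endothelium and mesenchyme lie below 0 in rat 4 and above 0 in rat 5. miR-133b and miR-10b passed the detection filter only through the jejunum.

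All 6 leukocyte miRNAs on the array were tested, 3 had means above 0 and 3 below, and none was called. In the 6-array fit, which called 24.8% of all miRNAs tested, 2 of the 6 were called, miR-142-5p higher in the duodenum (0.51, adjusted p = 0.0459) and miR-150 higher in the jejunum. miR-142-3p, found in blood cells, had 1706, 2385 and 3193 in the duodenum and 1467, 2069 and 2710 in the jejunum. It was higher in the duodenum by 0.22, 0.21 and 0.24 in rats 4, 5 and 6, so the within-rat differences were close to each other. Their mean of 0.22 had a 95% interval of −1.04 to 1.48 in the fit to all intestinal organs. In the 6-array fit its SE was 0.078, and miR-142-3p was not called there either (adjusted p = 0.126). miR-150, from lymphocytes, had 63.1, 82.0 and 76.9 against 87.7, 122 and 161 (−0.70, adjusted p = 0.616, and 0.0459 in the 6-array fit). The erythroid miR-451 and miR-144 and the liver miR-122 were detected on none of the 6 arrays, and of the neural list only miR-128 was tested (−0.03).

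Among the other families, all 5 tested members of the miR-23, miR-24 and miR-27 clusters lay below 0, between −0.43 and −0.28, and this held under each of the 6 other scalings and background settings. None was called. miR-24 had the lowest adjusted p (0.0637, and 0.0713 in the 6-array fit), and miR-23b was called in the 6-array fit (−0.42, adjusted p = 0.0459). With the percentile over all miRNAs, without scaling and after quantile normalization 3, 5 and 1 were called. These settings called 10, 13 and 7 of all 149 miRNAs higher in the jejunum, and moved the median of all by −0.19, −0.39 and −0.03. With the percentile over intestinal arrays, in the authors' table and with normexp 0 were called. miR-24 had 1034, 1234 and 1373 in the duodenum and 1647, 1504 and 1734 in the jejunum, without overlap. The 8 let-7 members lay between −0.45 and −0.04 and 6 of the 8 lay above 0 with a percentile over intestinal arrays, so that no direction is given. The median was −0.19 for the 4 tested members of the miR-181 family and −0.41 for the 4 of the miR-15 and miR-16 family, but 1 and 2 of these members lay above 0 in the authors' table, and again no direction is given. The 2 tested members of the miR-99, miR-100 and miR-125 families (median −0.22), the 2 of the miR-183 cluster (−0.26), miR-148b-3p (0.07) and the squamous marker miR-203 (−0.01) were not called, and miR-205 was not detected. Of these, miR-183 was called in the 6-array fit (−0.44, adjusted p = 0.0484). miR-34a, known as a target of p53, had 47.0, 81.5 and 71.4 in the duodenum and 32.2, 35.1 and 52.3 in the jejunum, with overlap and a difference of 0.74 (adjusted p = 0.0733, and 0.0668 in the 6-array fit). It was called higher in the duodenum with a percentile over intestinal arrays, after quantile normalization and in the authors' table. miR-21 had 21038, 19080 and 18081 against 14564, 16305 and 13759, without overlap but not called (0.38, adjusted p = 0.466, and 0.0682 in the 6-array fit). miR-31 (0.52, adjusted p = 0.694, and 0.0458 in the 6-array fit) and miR-375, known from endocrine cells (−0.35, adjusted p = 0.616, and 0.0606 in the 6-array fit), were also not called.

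Some differences between the organs had opposite signs in different rats. miR-3584-5p was higher in the duodenum by 1.56 in rat 4 and 1.40 in rat 6, and the difference in rat 5 was −2.12. miR-483* differed by −0.46, −1.61 and 1.32 in rats 4, 5 and 6. miR-494 (the miRBase 15.0 probe set) differed by 1.24, −1.16 and 0.70. None of these 3, which were chosen after their values were seen, was called.

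Set along the tract, 10 of the 15 miRNAs higher in the duodenum had an ileum mean beyond that of the jejunum, and so did 4 of the 6 higher in the jejunum. Over all miRNAs tested the same held for 59 of 77 (76.6%) with a higher mean in the duodenum and for 21 of 72 (29.2%) with a higher mean in the jejunum. miR-29c had means of 1826, 906 and 640 in duodenum, jejunum and ileum, miR-378 had 1606, 807 and 607, and miR-19a had 815, 468 and 410. miR-33 went back up, from 137 in the duodenum and 70.0 in the jejunum to 109 in the ileum with an SD of 42.2. miR-204 was 32.2 in the ileum and 85.3 in the colon, above its duodenum mean of 63.2. miR-133b was 229 in the ileum (SD 154) and 81.7 in the cecum. Only miR-378 had a glandular stomach mean (1932) above the duodenum among the 15, beside 12 of the 77 (15.6%). Of the 6 higher in the jejunum, 3 had a glandular stomach mean below the duodenum, beside 46 of the 72 (63.9%).

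No spot was saturated on the arrays. The number of arrays limits the precision. Each rat's duodenum and jejunum arrays were on 1 slide and in 1 scan. Correlations of log2 signals over the 149 miRNAs were 0.952 to 0.989 between rats within an organ, 0.960 to 0.971 between the organs of 1 rat and 0.915 to 0.967 between different organs of different rats. The comparison rests on 3 pairs. Without rat 5 no miRNA was called in either direction (limma, with 11 and 5 at an unadjusted p under 0.05, against 27 and 10 with all 3 rats), without rat 4 the calls were 7 and 3, and without rat 6 they were 3 and 3.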

How the data were processed

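Cy3-labelled RNA (0.1 µg per array) was hybridized to 1-color Agilent arrays with miRBase 15.0 and 16.0 probes and read with Agilent Feature Extraction 10.7.3 per the submitters' processing notes. The authors deposited the background-subtracted signal intensity of every spot, used here, and a per-miRNA table of intensities that they had scaled to a 75th percentile, used as an alternative. Outlier spots were dropped, and the remaining spots were averaged for each probe sequence and these for each miRNA. Each array was divided by its 75th percentile of the 37 miRNAs with a detected signal throughout the series and multiplied to a mean of 2118. Values were floored at 10.8 before log2. Detection required more than 50% of a miRNA's spots to be flagged well above background. Dividing by a percentile shifts the log2 differences alike only for miRNAs above the floor. "At least" folds compare the organ where a miRNA was measured with the higher of the other organ's lowest detected signal and its own signal.

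limma 3.58.1 (R 4.3.3) was fitted to the 18 arrays of 6 intestinal organs, which share 1 estimate of the spread, with a term per organ and a fixed term per rat. The two-sided p-values of duodenum minus jejunum were adjusted by Benjamini-Hochberg over the 149 miRNAs. Pairing rests on both organs coming from the same animal, and deviations from the organ means correlated by 0.776, 0.070 and 0.494 within rats 4, 5 and 6 and by up to 0.560 between rats. An exact permutation test of 3 pairs cannot go below 0.25. In simulated data of this comparison, 9.5%, 68.5% and 93.2% of miRNAs changed by 0.5, 1 and 2 on the log2 scale were called. Named were the called miRNAs (up to 15 per direction) and tested members of lists of cell type markers, families and clusters. The comparison and the lists were chosen with earlier results of these data known. Alternatives were other scalings, floors, filters, backgrounds and models, and each rat left out. For normexp, median spot and background signals were used. Sequences, hairpins and gene spans were from RefSeq GRCr8, whose gene table gives no exons.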

Additional observations from a re-analysis of the deposited data

How the results depend on the processing

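Counts are given as higher in duodenum and higher in jejunum, beside 15 and 6 as reported. They were 5 and 10 with the 75th percentile over all miRNAs, 18 and 5 with it over the miRNAs detected on all 18 intestinal arrays, 7 and 7 after quantile normalization, and 24 and 7 in the authors' table. Without scaling, a setting chosen after seeing the data, they were 1 and 13. With normexp they were 0 and 0 (limma, 61 and 0 at an unadjusted p under 0.05). There, the offset of 50 added before scaling became 144 to 169 in the duodenum and 106 to 150 in the jejunum, above the signals of the dim miRNAs, the median of all miRNAs moved by 0.64, and the values for miR-221, miR-133b, miR-196c*, miR-10b, miR-326 and miR-345-5p turned to 0.79, 0.48, 0.29, 0.64, 0.85 and 0.72. The median moved by −0.19 with the percentile over all miRNAs, 0.11 over intestinal arrays, 0.17 in the authors' table and −0.39 without scaling. Under the first 4 scalings, 4 calls for the duodenum (miR-210, miR-290, miR-652* and miR-219-5p) and 5 for the jejunum (all but miR-345-5p) were kept throughout these 4. Those 5 had passed the detection filter only through the jejunum. The same miRNAs were tested under each scaling, so their being kept is not independent of that filter.

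Testing only miRNAs detected on all 6 arrays gave 13 and 1. There, miR-204 and all calls for the jejunum but miR-345-5p were not tested, and miR-702-3p was tested but not called (adjusted p = 0.0508). Testing all 717 gave 5 and 2, of which 1 and 2 were among the reported calls. Without the replicate block the counts were 11 and 5 over 18 arrays, all of them among the 21. Over the 6 arrays alone they were 26 and 11 with the replicate block (15 and 5 of them reported calls, without miR-196c*, adjusted p = 0.0642) and 6 and 2 without it. With the slide in place of the rat they were 8 and 3. Leaving out each rat gave 0 to 7 and 0 to 3, and what set the low count without rat 5 was not tested. The other settings (floors, medians over spots, the small intestine or all 55 organs fitted together, trend) gave 10 to 17 and 4 to 9, but not always of the same miRNAs. With the floor 4 times as high 14 and 3 of the reported calls were shared, and miR-204 became 0.54, miR-221 −0.42, miR-133b −1.43 and miR-196c* −1.29, none of them called, while miR-219-5p moved to 0.19 and miR-326 to −0.48 and both were called. With the small intestine alone 9 and 3 were shared, and with all 55 organs 12 and 5, and miR-133b was lost in both.

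Markers near 0 changed sign. miR-192 became −0.088 with the percentile over all miRNAs, −0.22 after quantile normalization, −0.012 with normexp and −0.31 without scaling, and ranged from −0.051 to 0.20 with a rat left out. miR-194 became −0.022 after quantile normalization and −0.088 without scaling, and the miRBase 15.0 probe set of miR-215 −0.045 without scaling. miR-200a became 0.075 over intestinal arrays and 0.14 in the authors' table (−0.10 to 0.067 with a rat left out). With the percentile over all miRNAs, normexp and no scaling, miR-200b became −0.17, −0.094 and −0.39 (−0.085 to 0.091 with a rat left out), and the miRBase 15.0 probe set of miR-200c −0.16, −0.073 and −0.38 (−0.093 to 0.11). The other miR-200c probe set became 0.013 over intestinal arrays, 0.074 in the authors' table and 0.52 with normexp (−0.24 to 0.013). Dim miRNAs limit the comparison, since values near the lowest detected signal are only bounds.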
